A study of Mus musculus with 4 samples.

Results

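Cell surface receptors that signal through heterotrimeric G proteins were followed in mouse neural stem cells (NSCs) driven toward oligodendrocyte precursor cells (OPCs) with and without knockdown of the long non-coding RNA lnc-OPC. Members were the rows of the deposited count table whose symbol opens with Gpr and a digit, or with P2ry, S1pr, Lpar, Ednr, Ptger, Adra, Adrb, Adora, Htr or Drd and a digit, or F2r, leaving out Gpr17 and Gpr37. This rule took 157 of 22608 genes, and 87 of them held enough reads to be tested. The symbols reach beyond receptors for lipids, nucleotides and amines. By what is known of them, 14 members are not G protein-coupled receptors (GPCRs), among them the receptor kinase genes Adrbk1 and Adrbk2 (now Grk2 and Grk3), the serotonin-gated channel genes Htr3a and Htr3b, the riboflavin transporter gene Gpr172b (now Slc52a2) and membrane proteins of the Golgi and lysosome such as Gpr107 and Gpr137. A further 16 are adhesion receptors and 46 are orphans or others.

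The cells were NSCs from the cortex of embryonic CD-1 mice, grown with EGF and FGF at 20 ng/ml each. Both groups received a short hairpin RNA from a pLKO.1 lentivirus and were kept under puromycin, then held for 3 days in CNTF, a cytokine (20 ng/ml), and T3, a thyroid hormone (40 ng/ml), to form OPCs. Luciferase was the target of the hairpin in controls and lnc-OPC that in the knockdown. There were 2 libraries per group, which the labels call biological replicates. The column headers name a single hairpin, sh-lnc-OPC2, for both knockdown libraries. Its 21-base target is shown because it defines the treated group.

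sh-lnc-OPC2 target: gaacgtcactaaccttctgtt

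The count table holds no row named for lnc-OPC, so its level was not checked here. Reads in genes came to between 46144779 and 50098577 per library, and between 200488 and 232421 of them fell on the members. The markers of the labelled cells were present: all 8 OPC markers and all 8 stem cell markers were tested, and Olig2 averaged 529 CPM in controls and 397 CPM in knockdown libraries. CPM is a count scaled to 1e6 reads of the TMM-adjusted library and is the unit of level used throughout. Defining markers of microglia, such as Cx3cr1, Tmem119 and C1qa, and of endothelium, such as Cdh5 and Cldn5, were at 0 in every library.

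GPCRs pass signals from outside the cell to G proteins, whose alpha subunits raise or lower cyclic AMP, release calcium or act on the cytoskeleton. Astrocytes are known for endothelin, sphingosine 1-phosphate (S1P), purine and adrenergic receptors. Cells of the oligodendrocyte lineage use several orphan and adhesion receptors, and lysophosphatidic acid (LPA), adenosine and ATP are known to act on their migration and maturation.

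The comparison asked which members respond to lnc-OPC depletion during OPC formation. In the S1P, LPA, adenosine and endothelin families, receptors of the same ligand moved in both directions. S1pr1 rose and S1pr2 fell, and Lpar1, Lpar4 and Lpar6 rose while Lpar2 and Lpar3 fell. Adora1 rose while Adora2a and Adora2b fell, and Ednrb rose while Ednra fell slightly. The calls of Lpar3, Adora2b and Ednra did not hold under every alternative. The 2 calls of P2Y and 3 of adrenergic receptors were all higher and the 2 of prostaglandin receptors both lower. Among these, the calls of P2ry2, Adrb1, Ptger1 and Ptger3 did not hold under every alternative either. Calls over all genes were split nearly evenly by direction, and no test of the families was made. Of the 87 tested members, 20 were higher and 24 lower in the knockdown at an adjusted p under 0.05 in the quasi-likelihood test of edgeR, which is the meaning of "called", "rose" and "fell" here. That is 50.6% of members, beside 46.7% of all 14090 genes tested (23.5% higher and 23.3% lower). Without matching on level, the share called was thus near that of genes at large. Within each range of level given below, it was larger in members than in all genes, with no test made. Of the calls, 4 higher and 12 lower ones exceeded 1.5-fold, beside 8.69% of all tested genes (3.64% higher and 5.05% lower). Over 2-fold, the counts were 1 higher and 10 lower members, beside 1.56% and 2.26% of all genes. The 10 became 5 without control replicate 2, and also with a filter at 1 CPM, which left 7 of the 12 lower calls over 1.5-fold. The 1 became 2 without control replicate 2 and without either knockdown library. The median size of the log2 change without its sign was 0.32 in tested members and 0.17 over all tested genes, also without matching on level. Both knockdown libraries lay above both controls in 28 members and below them in 33, which together is 70.1% of those tested, beside 72.6% of all tested genes (36.4% above and 36.2% below). Fewer cells of a type and less RNA per cell cannot be told apart in these bulk libraries.

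**Figure D1:**
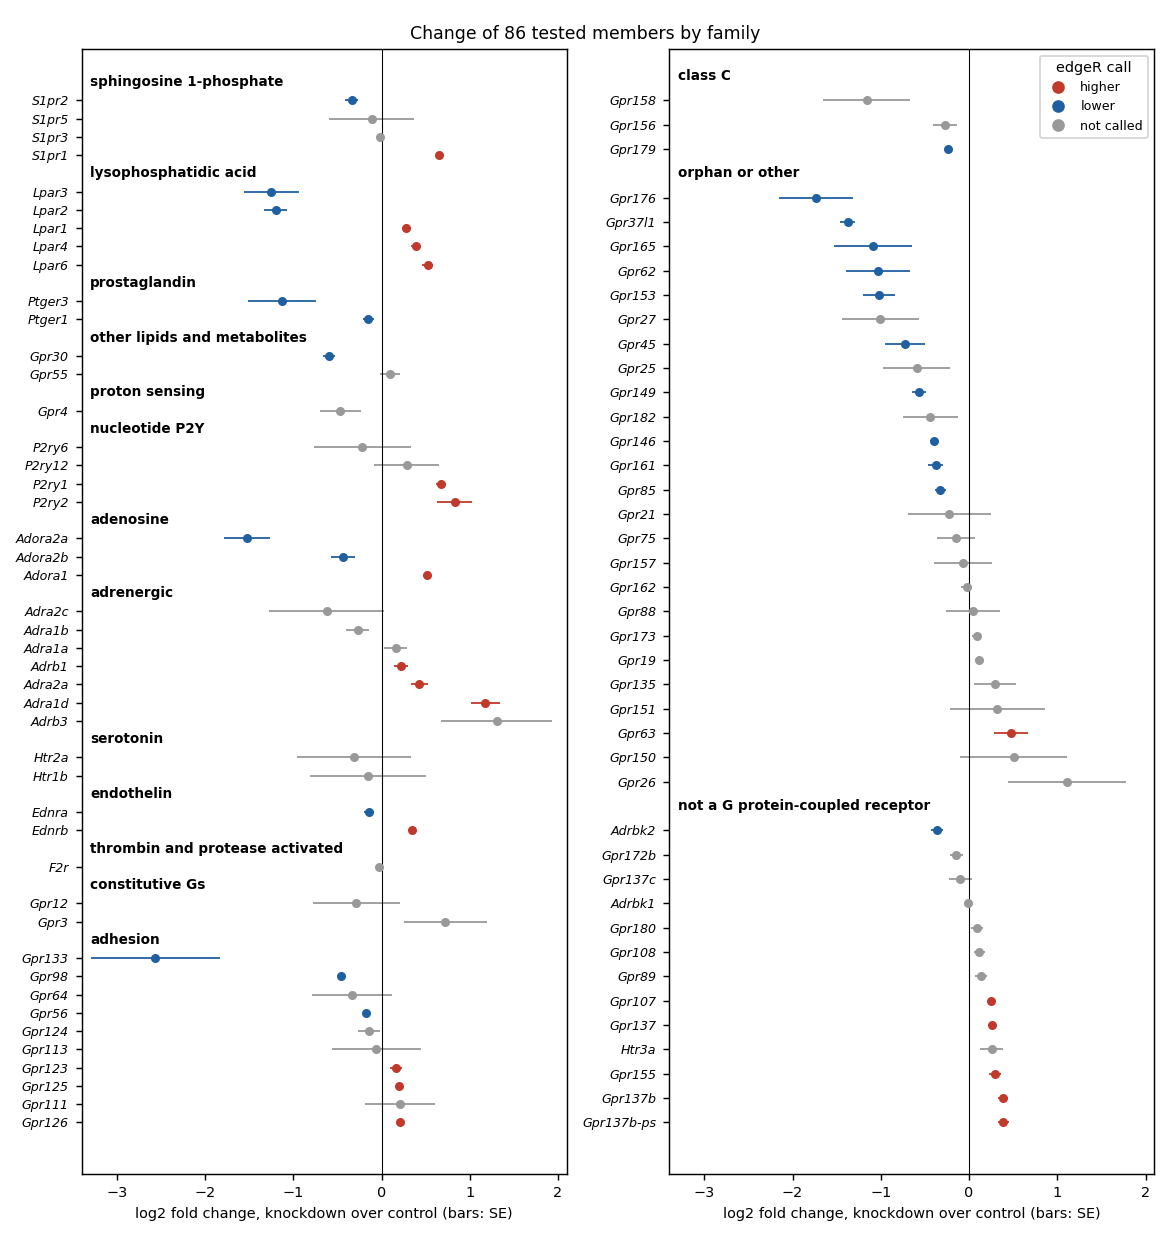
Log2 fold change (knockdown over control, x axis) of 86 of the 87 tested members, each with its standard error, grouped by family and coloured by the edgeR call. The orphan receptors hold 10 lower and 1 higher call, and the S1P, LPA, adenosine and endothelin families each hold calls in both directions.

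The members differ widely in depth, which bears on how many can be called. The 10 members with the most reads held 75.7% of all member reads, and Ednrb and S1pr3 alone held 39.4%. Among members with a mean level under 1 CPM, 5 of 24 were called (20.8%, beside 16.2% of all genes at that level), and at 1 to 10 CPM it was 9 of 22 (40.9%, beside 34.3%). At 10 to 100 CPM, 22 of 31 were called (71% of them, beside 49.7% of all genes in that range), and over 100 CPM 8 of 10 were called, beside 68% of all genes. The filter on low counts removed 70 members, none with more than 39 reads over the 4 libraries. They include all 5 dopamine receptor genes, 10 of 12 serotonin receptor genes and the EP prostaglandin receptor genes Ptger2 and Ptger4. Of these, 17 had 0 reads in every library, which allows a level of up to 0.0597 to 0.0642 CPM per library (3 counts, counting error only).

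Promoter sequences are shown for the members that were called, changed over 1.5-fold and reached 10 CPM. These were S1pr1, P2ry1, Gpr30 (now Gper1) and Gpr37l1, and windows of the last 3 were taken from RefSeq (GRCm38.p6, a later build than that of the counts). Each line gives the 250 bases before the annotated start, 5′ to 3′ on the gene's strand, with every CG dinucleotide in capitals.

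P2ry1 (higher in the knockdown, chr3:61002535-61002784, plus strand): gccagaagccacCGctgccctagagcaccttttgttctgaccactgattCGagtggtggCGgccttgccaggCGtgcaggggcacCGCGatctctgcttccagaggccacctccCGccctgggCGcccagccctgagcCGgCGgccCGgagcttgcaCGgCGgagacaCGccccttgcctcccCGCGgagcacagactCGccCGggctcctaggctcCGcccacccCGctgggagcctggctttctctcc

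Gpr30 (lower in the knockdown, chr5:139422929-139423178, plus strand): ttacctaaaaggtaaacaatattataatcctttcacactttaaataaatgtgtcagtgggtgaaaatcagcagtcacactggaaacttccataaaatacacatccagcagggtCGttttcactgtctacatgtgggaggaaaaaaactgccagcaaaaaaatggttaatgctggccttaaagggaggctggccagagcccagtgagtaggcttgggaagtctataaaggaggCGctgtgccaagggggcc

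Gpr37l1 (lower in the knockdown, chr1:135167682-135167931, minus strand): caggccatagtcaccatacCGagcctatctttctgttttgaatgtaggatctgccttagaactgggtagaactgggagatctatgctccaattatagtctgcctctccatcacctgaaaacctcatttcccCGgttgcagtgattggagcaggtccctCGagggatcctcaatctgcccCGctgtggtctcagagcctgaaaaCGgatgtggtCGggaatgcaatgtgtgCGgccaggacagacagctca

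The P2ry1 window held 20 CG dinucleotides at a GC content of 70.8%, against 7 at 52% for Gpr37l1 and 2 at 44% for Gpr30. In the Gpr30 window the letters TATAAA stood 29 bases before the RefSeq start. Windows of 300 bases, to 50 past the start, were found for 59 tested members. Their median GC content was 65% in the 16 higher, 60.7% in the 19 lower and 59.35% in the 24 not called. Over all 27025 genes with a window, which include genes not tested here, it was 52.7%. Of the words searched on both strands, CAGCTG was in 19 of the 59 (32.2%, beside 16.1% of all windows). These were 3 of the 16 higher and 6 of the 19 lower members, and the rest were members not called. TATAAA was in 5 of the 59 (14.2% of all windows), ACAAAG in 9 (18.7%), TTCNNNGAA in 3 (8.47%) and TGACGTCA in 1 (1.88%). These are matches of letters and no evidence of a bound factor.

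Among the receptors for S1P, a lysophospholipid that acts on cell migration and survival, 1 rose and 1 fell of 4 tested. S1pr1, which lowers cyclic AMP, stood at 146 and 148 CPM in the controls and at 231 and 229 CPM in the knockdown libraries. The groups did not overlap, and the rise was 1.57-fold (log2 change 0.65, SE 0.03, edgeR adjusted p = 2.97e-18), the smallest p of any member. S1pr2, which signals mainly to the cytoskeleton, went from 22.7 and 23.4 CPM to 19.2 and 17.3 CPM, a fall of 1.26-fold (edgeR adjusted p = 0.000187). S1pr3, the receptor with the most reads after Ednrb, stood at 735 and 743 CPM in the controls and 711 and 744 CPM in the knockdown, so that the groups overlapped (log2 change -0.02, SE 0.03). Per kilobase of exon, S1pr3 was the highest of the family in the control (166 CPM per kb), followed by S1pr1 (48.2) and S1pr2 (2.89), and this order was the same in the knockdown. S1pr5, known from mature oligodendrocytes, held 11 to 35 reads per library and was not called.

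All 5 tested LPA receptors were called, 3 of them higher and 2 lower, with a median log2 change of 0.28. Lpar6, a receptor of the purinergic-like group, showed the largest rise, from 25.4 and 23.3 CPM to 33.8 and 36.1 CPM (1.44-fold, edgeR adjusted p = 1.63e-08). Lpar4, of the same group, went from 32.4 and 29.4 CPM to 39.9 and 41.2 CPM, a rise of 1.31-fold (edgeR adjusted p = 8.25e-07). Lpar1, known in oligodendrocytes and their precursors, went from 34.7 and 35.2 CPM to 41.5 and 43.5 CPM (1.22-fold, edgeR adjusted p = 4.36e-05). Lpar2 went the other way, from 8.54 and 8.65 CPM to 3.73 and 3.74 CPM, which is 2.3-fold lower (log2 change -1.20, SE 0.13, edgeR adjusted p = 1.88e-09). Lpar3 stood at 1.59 and 1.84 CPM in the controls and at 0.53 and 0.91 CPM in the knockdown (log2 change -1.25, SE 0.32, edgeR adjusted p = 0.0014), and its adjusted p was 0.0577 without control replicate 2. No library of the other group fell within the range of a group for any of the 5. Per kilobase, the members that rose were those with the higher levels, at 4.51 to 8.15 CPM per kb in the control, and those that fell stood at 1.47 (Lpar2) and 0.697 (Lpar3). In the GRCm38 annotation Lpar6 lies inside Rb1 on the opposite strand, and Rb1 rose 1.32-fold as well. The library kit does not mark strand, so reads of unspliced Rb1 could not be told apart from those of Lpar6.

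Of the 4 other lipid receptors tested, 3 were called lower, and the call of Gpr30 alone held under every alternative. Gpr30, reported as a membrane estrogen receptor, fell from 28.9 and 31.5 CPM to 19 and 20.9 CPM (1.51-fold, edgeR adjusted p = 6.43e-09). In the GRCm38 annotation Gpr30 lies inside 3110082I17Rik on the opposite strand, which was not analysed here. Without strand marking, unspliced reads of that gene could not be told apart from those of Gpr30. Ptger3, a prostaglandin E receptor that lowers cyclic AMP, was called 2.19-fold lower on 38 and 61 reads against 21 and 25 (edgeR adjusted p = 0.0159), but the call was lost with control replicate 2 left out (adjusted p = 0.321), with knockdown replicate 1 left out (0.0705) and with DESeq2 (0.0638). Ptger1, the prostaglandin E receptor linked to calcium, went from 26.9 and 27.9 CPM to 24.4 and 24.9 CPM. This small fall (log2 change -0.15, edgeR adjusted p = 0.0489) was lost with DESeq2, without a filter on low counts and without each library in turn (adjusted p = 0.0532 to 0.216). Strand was not marked, so antisense reads could not be told apart from those of Ptger1. The cannabinoid-related receptor gene Gpr55 stood at 6.91 to 8.14 CPM in all libraries and was not called.

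The nucleotide and adenosine receptors also divided by member, with a median log2 change of 0.48 in the 4 tested P2Y and -0.44 in the 3 tested adenosine receptors. P2ry1, the ADP receptor behind many calcium responses of astrocytes, went from 26.9 and 27.2 CPM to 43.6 and 42.6 CPM. The P2ry1 exons share 992 of 4291 bases with the predicted gene Gm37035 on the opposite strand, which was not analysed here. Every knockdown library was above every control, by 1.6-fold on the fitted scale (log2 change 0.67, SE 0.06, edgeR adjusted p = 3.96e-12). P2ry2, activated by ATP and UTP, rose from 1.83 and 2.33 CPM to 4.2 and 3.17 CPM (1.77-fold, edgeR adjusted p = 0.000791), with an adjusted p of 0.0575 without control replicate 1. P2ry12, best known as an ADP receptor of microglia, held 25 to 41 reads per library and P2ry6 9 to 18 reads, and neither was called.

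Adora1, the adenosine receptor that lowers cyclic AMP, went from 222 and 217 CPM to 311 and 315 CPM, a rise of 1.43-fold (log2 change 0.51, SE 0.03, edgeR adjusted p = 5.12e-16). The adenosine receptors that raise cyclic AMP moved down. Adora2a stood at 2.25 and 2.8 CPM in the controls and at 0.755 and 0.991 CPM in the knockdown, 2.88-fold lower (log2 change -1.53, SE 0.26, edgeR adjusted p = 9.8e-06). Adora2b went from 5.72 and 7.02 CPM to 4.73 and 4.67 CPM (1.35-fold lower, edgeR adjusted p = 0.01), and its adjusted p was 0.191 without control replicate 2. The exons of Adora1 share 1162 of 5785 bases with Mybph on the opposite strand, and Mybph held 2 to 7 reads per library. Per kilobase, Adora1 exceeded Adora2b in the control (37.9 against 3.45 CPM per kb) and in the knockdown (54.1 against 2.55).

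**Figure D2:**
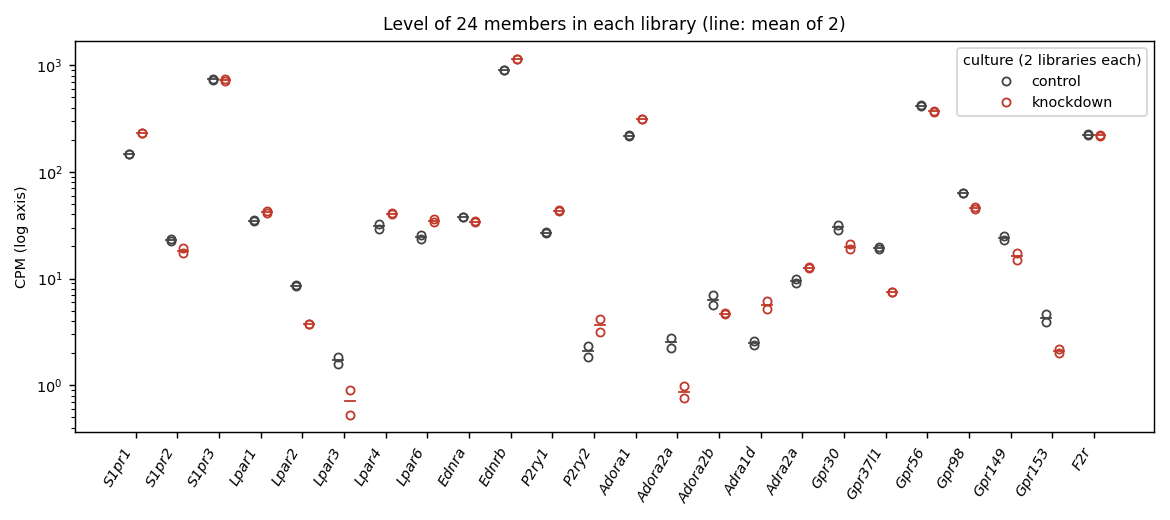
Level (CPM, log axis) of 24 members in each of the 4 libraries, control in grey and knockdown in red, with a line at the mean of 2. S1pr1, P2ry1 and Adora1 lie higher in both knockdown libraries, Lpar2, Adora2a and Gpr37l1 lie lower, and the libraries of S1pr3 overlap.

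The 10 tested amine receptors held 3 calls, all higher and all adrenergic, and the 8 tested adrenergic receptors had a median log2 change of 0.19. Adra1d, an alpha-1 receptor linked to calcium, went from 2.39 and 2.61 CPM to 5.18 and 6.11 CPM. At 2.26-fold it was the largest called rise of any member (log2 change 1.18, SE 0.16, edgeR adjusted p = 2.79e-07). Adra2a, an alpha-2 receptor that lowers cyclic AMP, rose from 9.82 and 9.05 CPM to 12.5 and 12.8 CPM (1.34-fold, edgeR adjusted p = 0.000344). Adrb1, a beta receptor that raises cyclic AMP, went from 12.9 and 13.3 CPM to 15.6 and 14.9 CPM (1.17-fold, edgeR adjusted p = 0.0286), and its adjusted p reached 0.141 when a library was left out and was 0.113 with DESeq2. Adra1a (5.63 to 6.73 CPM) and Adra1b (5.28 to 7.32 CPM) were not called. The serotonin receptors Htr1b and Htr2a passed the filter on 40 reads each over 4 libraries and were not called, so a change of moderate size in them was not detectable at this depth.

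Ednrb, the endothelin receptor of astrocytes and progenitors that binds all endothelins, was the member with the most reads. It stood at 906 and 905 CPM in the controls and at 1139 and 1155 CPM in the knockdown, a rise of 1.27-fold (log2 change 0.34, SE 0.03, edgeR adjusted p = 1.62e-12). Ednra, which is best known from vascular muscle, went from 37.9 and 37.5 CPM to 33.8 and 34.6 CPM. The fall of 1.1-fold (edgeR adjusted p = 0.0326) was lost with DESeq2 and without each library in turn (adjusted p = 0.0576 to 0.152). Per kilobase, Ednrb was at 212 and Ednra at 6.88 CPM per kb in the control. The thrombin receptor gene F2r stood at 223 and 226 CPM in the controls and 220.4 and 219 CPM in the knockdown. Its log2 change of -0.03 (SE 0.03) was not called.

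Of the 25 tested orphan receptors, 10 fell (40%, beside 23.3% of all genes), 1 rose (4%, beside 23.5%) and 14 were not called, and no test of the group was made. Their median log2 change was -0.32, beside 0.002 over all tested genes. Gpr37l1, a receptor of astrocytes and oligodendrocyte precursors and a close relative of Gpr37, went from 18.8 and 19.8 CPM to 7.42 CPM in each knockdown library. The groups were far apart, at 2.6-fold lower (log2 change -1.38, SE 0.09, edgeR adjusted p = 8.18e-15). Gpr153 fell 2.03-fold from 3.9 and 4.67 CPM to 2.2 and 2 CPM (edgeR adjusted p = 1.71e-05). Gpr176 went from 52 and 47 reads to 10 and 20 reads, which was 3.33-fold lower on the CPM scale (edgeR adjusted p = 0.000831). Gpr62, known from myelinating oligodendrocytes, stood at 52 and 51 reads in the controls and 21 and 30 reads in the knockdown (2.05-fold lower, edgeR adjusted p = 0.019). The Gpr62 call was lost with DESeq2 and without either control library and without knockdown replicate 1, with an adjusted p of up to 0.138. Its exons share 51 bases with Pcbp4 on the opposite strand, which held 11415 to 13540 reads per library and also fell. Gpr45, from 2.87 and 2.27 CPM to 1.33 and 1.78 CPM (1.66-fold lower, edgeR adjusted p = 0.00947), lost its call with control replicate 1 left out (adjusted p = 0.174) and with knockdown replicate 1 left out (0.112). Gpr165, on 50 and 24 against 18 and 17 reads (edgeR adjusted p = 0.0409), reached an adjusted p of 0.523 without control replicate 1 and lost its call also with DESeq2 and without either knockdown library.

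Smaller decreases were called for orphan receptors with more reads, chosen here after their values were seen. Gpr149 went from 25.1 and 22.8 CPM to 17.3 and 15 CPM (1.48-fold lower, edgeR adjusted p = 1.72e-07). Gpr146, described in liver as a regulator of cholesterol, fell 1.32-fold, Gpr161, which holds back Hedgehog signalling at the primary cilium, fell 1.3-fold, and Gpr85 fell 1.25-fold. Gpr146 lies inside the same opposite-strand gene as Gpr30, so the same limit on its reads holds. The single orphan called higher was Gpr63, from 2.29 and 2.46 CPM to 3.79 and 2.81 CPM, with an adjusted p of 0.0439 that reached 0.468 when a library was left out. Gpr19, Gpr162 and Gpr173, each over 28 CPM in every library, were not called.

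The adhesion receptors, large proteins that bind matrix or neighbouring cells, included 3 called higher and 3 called lower of 10 tested, with a median log2 change of -0.10. Gpr56 (now Adgrg1), known for keeping OPCs dividing, stood at 411 and 423 CPM in the controls and 376 and 363 CPM in the knockdown, a fall of 1.13-fold (edgeR adjusted p = 6.85e-06). Gpr126 (now Adgrg6), which Schwann cells need for myelination, went from 127 and 123 CPM to 143 and 146 CPM, a rise of 1.16-fold. Gpr125 (now Adgra3) rose 1.14-fold from 123 and 122 CPM to 138 and 142 CPM. Gpr98 (now Adgrv1), the very large receptor of the Usher complex, went from 62.9 and 63.7 CPM to 45.4 and 46.6 CPM, 1.38-fold lower (edgeR adjusted p = 3.03e-10). Gpr133 (now Adgrd1) was named after its values were seen, since it had the largest fitted decrease of any member. It held 14 and 22 reads in the controls and 3 reads in each knockdown library, and its adjusted p went from 0.00406 to 0.131 without control replicate 2. Of the class C receptors, Gpr179, best known from retinal bipolar cells, stood at 149.9 and 165 CPM in the controls and 131 and 136 CPM in the knockdown (1.18-fold lower, edgeR adjusted p = 9.51e-06).

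Of the 13 tested members that are not GPCRs, 5 rose (38.5%, beside 23.5% of all genes) and 1 fell (7.69%, beside 23.3%). The Golgi protein gene Gpr107 rose 1.19-fold from 133 and 132 CPM to 159 and 156 CPM, and the lysosomal membrane protein genes Gpr137 and Gpr137b rose 1.19-fold and 1.31-fold. Gpr137b-ps, annotated as a pseudogene and counted among the 5, rose 1.31-fold as well, but reads of these near-identical copies may be shared. The exons of Gpr137 overlap those of Bad on the opposite strand. The kinase gene Adrbk2, whose product turns off active receptors, fell 1.28-fold, while Adrbk1 stood at 77 to 80.1 CPM in all libraries and was not called. Leaving these genes out, 15 of 74 tested GPCRs rose (20.3%, beside 23.5% of all genes) and 23 fell (31.1%, beside 23.3%). Their median log2 change was -0.15.

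Receptors grouped by the G protein they are best known for held calls in both directions. Most tested receptors were placed in no such group, among them all LPA, adhesion and orphan receptors, S1pr2 and S1pr3. The share called was 42.9% for Gs, 57.1% for Gi and 54.5% for Gq, near the 46.7% of all tested genes. Of 7 tested receptors that act through Gs, which raises cyclic AMP, 1 rose and 2 fell. Of 7 that act through Gi, which lowers it, 3 rose (S1pr1, Adora1 and Adra2a) and 1 fell (Ptger3). Of 11 that act through Gq, which releases calcium, 4 rose (Ednrb, P2ry1, P2ry2 and Adra1d) and 2 fell (Ednra and Ptger1). The calls of Adrb1, Ptger3, Ednra and Ptger1 among these were lost with DESeq2. These groups hold few genes and no test of the groups was made.

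Genes that make, carry or remove the ligands included 13 called higher and 12 called lower of 31 tested (80.6%, beside 46.7% of all genes, without matching on level), and their median log2 change was -0.06. Enpp2 encodes autotaxin, the secreted enzyme that makes LPA and is abundant in oligodendrocytes. It went from 93.9 and 90.8 CPM to 31.2 and 28.4 CPM, 3.1-fold lower (log2 change -1.63, SE 0.05, edgeR adjusted p = 7.72e-24). Ptgs2, the inducible cyclooxygenase of prostaglandin synthesis, fell 3.95-fold from 8.9 and 6.31 CPM to 2.37 and 1.5 CPM. Entpd1, which breaks down extracellular ATP and ADP, fell 1.93-fold, and the protease-like gene Prss35 fell 4.26-fold. Maoa, which degrades amines, rose 1.45-fold, and Adk, which removes adenosine inside cells, rose 1.4-fold. Ppap2a, a lipid phosphatase that breaks down LPA, rose 1.2-fold. Its relatives, added here after their values were seen, did not move alike: Ppap2c fell 1.95-fold and the more abundant Ppap2b rose 1.05-fold.

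Among the signalling proteins beneath the receptors, 7 of 14 tested G protein alpha subunits rose and 2 fell (median log2 change 0.17). The share called in the signalling lists was 64.3% to 71.4%, beside 46.7% of all genes, without matching on level. Gnai2, the main Gi subunit, rose 1.47-fold from 745 and 784 CPM to 1114 and 1137 CPM, and Gna11 and Gnas rose 1.31-fold and 1.21-fold. Gnai1 fell 1.33-fold. Of 12 beta and gamma subunits 6 fell and 2 rose (median -0.13), with Gng4 5.2-fold, Gng11 3.18-fold and Gng2 1.4-fold lower. Of 14 RGS proteins, which shorten G protein signals, 7 rose and 3 fell (median 0.10). Rgs4 rose 3.15-fold from 16.9 CPM in each control to 51.7 and 54.6 CPM, Rgs8 rose 2.64-fold and Rgs6 2.15-fold, while Rgs3 fell 1.83-fold. Of 24 enzymes that make or respond to intracellular messengers, 6 rose and 10 fell (median -0.01), with Plcb1 1.57-fold higher, and the phosphodiesterase gene Pde4d 2.00-fold and Plcb3 1.42-fold lower. Of 7 arrestins and receptor kinases, Arrb2 rose 1.42-fold and 4 fell, Arrb1 among them at 1.13-fold.

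**Figure D3:**
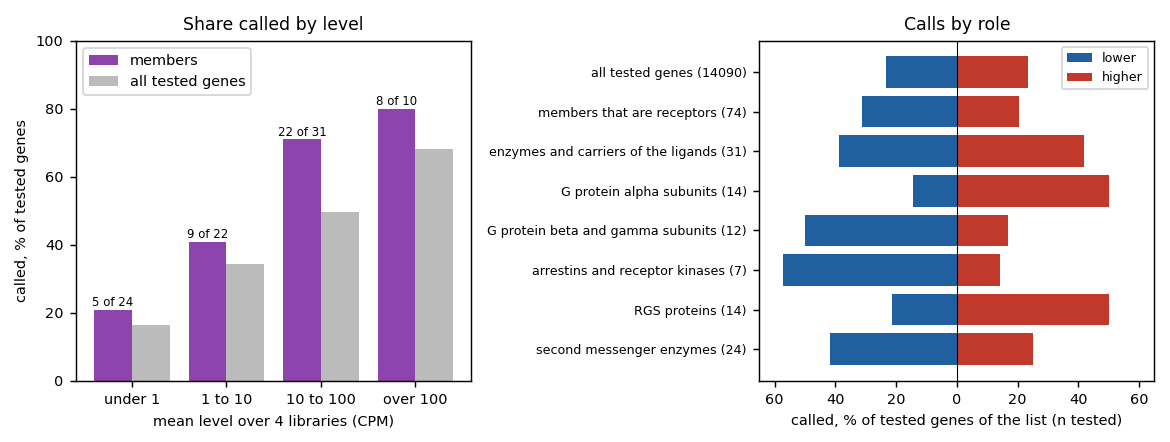
Left, the share of tested genes called (%) by mean level for members (purple, with counts) and all tested genes (grey). Right, the share called lower (blue, leftward) or higher (red, rightward) for the member GPCRs, their ligand and signalling lists and all 14090 tested genes, with the number tested in brackets. The members' share rises with level from 20.8% to 80%, as it does for all genes.

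Marker genes of several cell types moved with the knockdown. The summed level of the 8 astrocyte markers was 4495 to 4568 CPM in the controls and 7326 to 7492 CPM in the knockdown, with 6 of 8 called higher and Aqp4 lower. This moved with the rise of S1pr1, Ednrb, P2ry1, Adora1 and the adrenergic genes. The 8 oligodendrocyte markers all fell, with a sum of 1081 to 1184 CPM in the controls and 633 to 659 CPM in the knockdown. The OPC sum went from 2099 to 2181 CPM to 1713 to 1737 CPM. Its largest part was Olig1 (1105 CPM in controls and 946 CPM in knockdown, means of 2). Of the 8 OPC markers 6 were called lower, while Cspg4 and Lhfpl3 were not called. Enpp2, Gpr37l1 and Gpr62 fell as well, but the Gpr62 call did not hold under every alternative. Lpar1, known in the oligodendrocyte lineage, rose. Gpr37l1 is known in astrocytes too, whose marker sum rose. The mural marker sum went from 656 to 660 CPM to 320 to 321 CPM, with 4 of 7 tested markers lower and Kcnj8 higher, while the mural markers Rgs5, Des and Abcc9 were at or near 0. The endothelial sum of 75.7 to 80.4 CPM in the controls and 36.7 to 37.8 CPM in the knockdown came almost wholly from Kdr. Microglia markers summed to 0.717 to 1.05 CPM in the controls and 0.775 to 0.89 CPM in the knockdown, with 7 of 12 at 0 in every library. Neuron markers summed to 268 to 284 CPM and 240.5 to 243 CPM, with 3 of 7 tested called higher and 2 lower. Stem cell markers summed to 13968 to 14099 CPM and 16563 to 16872 CPM, with 3 of 8 higher and 3 lower. That rise came from Vim (8617 CPM in controls and 11786 CPM in knockdown, means of 2), and without it the sum was 5330 to 5501 CPM in controls and 4870 to 4992 CPM in the knockdown. The part of these cell types in the receptor changes was not tested.

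**Figure D4:**
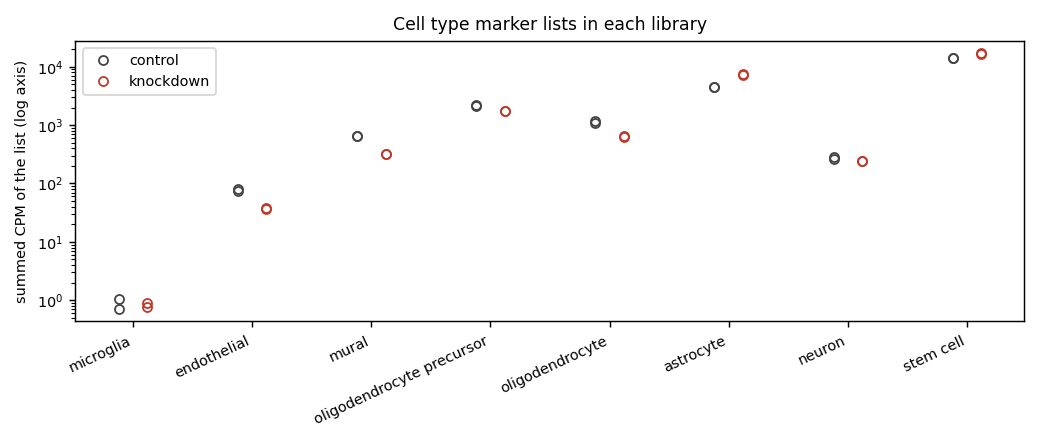
Summed level (CPM, log axis) of 8 cell type marker lists in each control (grey) and knockdown (red) library. The astrocyte list is higher in both knockdown libraries, the oligodendrocyte, mural and endothelial lists are lower, and the microglia list stays near 1 CPM.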

How the data were processed

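Polyadenylated RNA of 4 libraries was sequenced from both ends, without strand marking. The authors deposited whole-number read counts per gene, made with HTSeq 0.6.1 and not normalized. Other tools in the submitters' processing notes are SAMtools 0.1.18, Bowtie 0.12.7 and TopHat 1.3.3, with the build mm9. Annotation release and strand setting were not given in the sources used here. Rows that name no gene made up 31.8% to 33.5% of listed reads and were left out. Tables of the authors' own fold changes, p-values and ontology terms were not used.

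The whole count table was fitted in edgeR 4.0.16 (R 4.3.3): filterByExpr (minimum count 10, minimum total 15), TMM scaling, robust quasi-likelihood, all 4 libraries, no covariate, and Benjamini-Hochberg adjustment over 14090 genes. Standard errors are those implied by the F statistic. The labels do not say whether biological replicates came from separate cultures, so p-values measure only the spread between these libraries. Levels per kb used exon unions of GENCODE M21, found for 155 of 157 members. DESeq2 1.42.0, other scaling and filters, a replicate block and left-out libraries were alternatives. The test was checked on simulated counts.

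Members, families and lists were chosen with earlier results of these data known. Named members were those called and changed at least 1.5-fold at 0.5 CPM or more, the 10 with the most reads, and called members or those of 1 CPM or more in the ligand families. For the role lists, up to 4 called genes per direction were eligible. Values of a few genes are not reported here.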

Additional observations from a re-analysis of the deposited data

Results flagged for a closer look

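Among listed reads, those with more than 1 alignment, a class outside the gene counts, took 11.2% ± 0.0698 in knockdown libraries against 10.8% ± 0.131 in controls (SD, n = 2 each). Both knockdown values exceeded both control values, with no test made. Groups of 2 libraries are too small to single out 1 library for a member.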

How the results depend on the processing

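Over 9 alternatives, 31 of the 44 called members kept their call wherever they were tested and 13 lost it at least once, and no called member changed sign. Of 320 values for the 36 members named by rule, 289 stayed on their side of the threshold and 31 lost the call. With the stricter filter of 1 CPM, which tests fewer genes, 7 members were lower over 1.5-fold and 5 over 2-fold, in place of 12 and 10. Without 1 library at a time, 16 to 20 members were called higher and 18 to 22 lower, 1 to 2 were higher over 2-fold and 5 to 9 lower over 2-fold, the 5 without control replicate 2. DESeq2 called 17 higher and 19 lower. The repeat numbers do not pair the libraries (correlation of deviations 0.0538). With the replicate block, 22 members were higher and 26 lower, among them all 44 called without it. Scaling moved the median log2 change of all genes by under 0.1. Members with few reads are limited by depth.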
